A study of Schizosaccharomyces pombe with 12 samples.

Results

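Fission yeast adjusts phosphate uptake through a small set of genes whose transcripts were followed here in cells lacking subunits of the Dis2-Ppn1-Swd22 (DPS) module of the cleavage and polyadenylation factor. The loci were chosen by name for their part in this pathway, with earlier results of these data known, and number 10 of the 6986 loci in the count table. They are the phosphate (PHO) regulon mRNAs *pho1* (SPBP4G3.02), *pho84* (SPBC8E4.01c) and *tgp1* (SPBC1271.09), the long noncoding RNAs (lncRNAs) *prt2* (SPBC8E4.02c) and SPNCRNA.1343, the *pho* cluster neighbor *ecl3* (SPBC8E4.12c), the activator *pho7* (SPBC27B12.11c), the inositol pyrophosphate enzymes *asp1* (SPCC1672.06c) and *aps1* (SPAC13G6.14), and the polyphosphate synthesis gene *vtc4* (SPCC1322.14c). All 10 had enough reads to test.

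Poly(A)+ RNA was sequenced from 4 *Schizosaccharomyces pombe* strains, wild-type (*WT*), *ppn1*Δ, *swd22*Δ and *dis2*Δ, with 3 biological replicates of each. Every strain was h+, and all were grown in YES, a rich medium that contains phosphate, to logarithmic phase at 30°C. The *ppn1* and *swd22* deletions were marked with HygMX and the *dis2* deletion with NatMX, while *WT* carried no marker, so that the drug cassette cannot be told apart from the deletion. Each genotype is 1 strain. The 12 libraries held 17616688 to 23435936 counts. The deleted gene was lower than in *WT* in all 3 libraries of its own strain, with log2 fold changes of -2.22 for *ppn1*, -6.54 for *swd22* and -3.92 for *dis2*. The mean counts left at these loci were 21.3%, 1.08% and 6.62% of *WT*. The authors found no reads in the deleted coding sequences, and where in each locus the remaining counts fell was not examined.

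Dis2 is a PP1-type protein phosphatase, Swd22 a WD-repeat protein, and Ppn1 the subunit that joins both to the 3' processing machinery. In phosphate-replete cells each PHO mRNA is held down by transcription of an lncRNA that starts upstream and runs across the mRNA promoter, and how early the lncRNA is terminated sets how strong this interference is. The zinc finger factor Pho7 activates the mRNA promoters. Inositol pyrophosphates are signaling molecules that tune lncRNA termination, and they are also read by SPX domains in proteins of phosphate transport and storage.

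The labels of both lncRNAs were compared with the annotation of the later genome build ASM294v3, which was used for names and neighbors only. In that annotation *prt2* is the *pho84*-repressing lncRNA, lies on the same strand as *pho84* and overlaps it. SPNCRNA.1343 lies upstream of *tgp1*, but on the opposite strand. It is described there as a non-functional RNA made bidirectionally with *nc-tgp1*, so it is treated here as a divergent upstream transcript and not as the repressor of *tgp1*. The lncRNAs *nc-tgp1* and *prt* (which lies across the *pho1* promoter) were not analysed here. The libraries were strand-specific, but the strand setting used to count reads per annotated locus is not given in the sources used here. Reads of transcripts that overlap on opposite strands may therefore not be fully separated. *prt2* and *pho84* overlap on the same strand in this annotation, so no strand setting could separate the reads of their shared part. This limits both the *prt2* level and its ratio to *pho84*.

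TMM factors from edgeR were used to bring read counts to a common library size, and these values are called normalized read counts. Strains were compared by edgeR's quasi-likelihood test, and p-values were adjusted by the Benjamini-Hochberg method across the 6110 tested loci. Every adjusted p below is from this test, except those of count ratios within libraries. The latter are exact permutation p-values adjusted by the same method over the 9 ratio tests. A locus was called changed when its adjusted p was at most 0.05, the change was at least 2-fold and its mean normalized count was at least 100 in either strain. Smaller changes are described by the adjusted p alone. For these, a call lost or gained below means only that the adjusted p crossed 0.05, with no fold cutoff. The 3 mutants were compared with the same *WT* libraries, so their changes are not independent of each other. Where 3 values are given for the mutants without a strain, their order is *ppn1*Δ, then *swd22*Δ, then *dis2*Δ.

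By the 2-fold rule, 3 of the 10 genes were called in *ppn1*Δ, against 3.45% of all loci tested, and the same 3 genes, *pho1*, *pho84* and *ecl3*, were called in *swd22*Δ, against 3.27%. In *dis2*Δ 2 genes were called, *pho1* and *pho84*, against 2.78%. All of these calls were decreases. By the adjusted p alone, 9 of the 10 genes passed in *ppn1*Δ (7 lower, 2 higher), where 49.6% of all loci did. In *swd22*Δ 9 passed as well (7 lower, 2 higher), against 39.8% of all loci. In *dis2*Δ 6 passed (5 lower, 1 higher), against 41.3%. Over the 10 genes the median log2 change against *WT* was -0.37 (*ppn1*Δ), -0.46 (*swd22*Δ) and -0.33 (*dis2*Δ), beside medians over all loci of 0.01, -0.002 and 0.002.

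**Figure D1:**
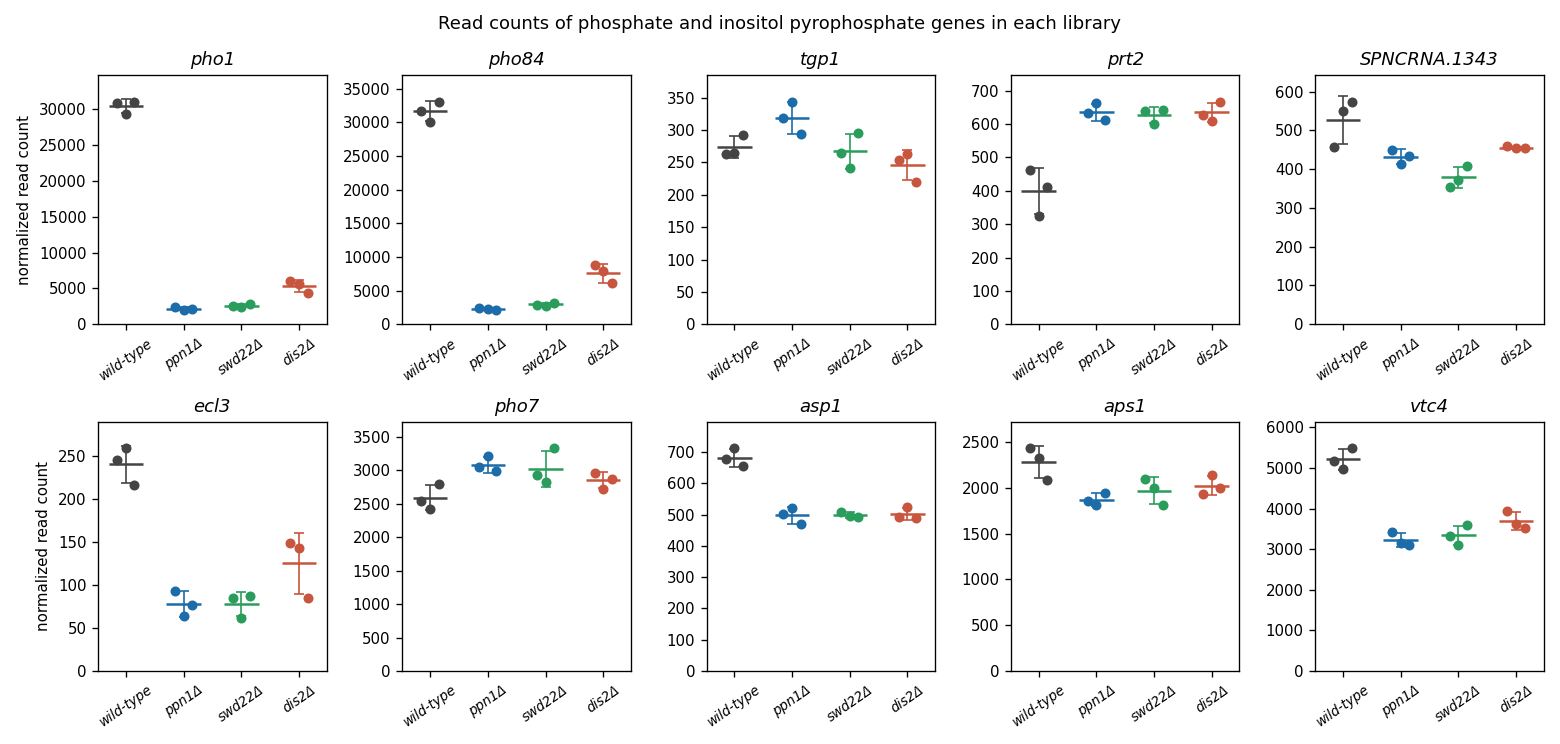
Normalized read counts (linear axes from 0) of the 10 genes in the 12 libraries; points are libraries, horizontal bars strain means and error bars 1 SD (n = 3). *pho1*, *pho84* and *ecl3* were lower in every mutant library than in every *WT* library, *prt2* was higher in every mutant library, and *tgp1* stayed between 221 and 344.

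*pho1* encodes the cell surface acid phosphatase, which releases phosphate from organic compounds outside the cell. In RNA of whole cultures, fewer cells with a transcript and less of it per cell cannot be told apart. Its normalized read count was 30840, 29331 and 31070 in the *WT* libraries, 2366, 1971 and 2105 in *ppn1*Δ, and 2505, 2344 and 2815 in *swd22*Δ. In *dis2*Δ it was 5986, 5565 and 4415. The *ppn1*Δ and *swd22*Δ libraries overlapped, the *dis2*Δ libraries lay above all of these, and every mutant library lay far under *WT*. As a share of *WT*, the mean was 17.5% in *dis2*Δ, 8.40% in *swd22*Δ and 7.06% in *ppn1*Δ. The log2 fold change was -3.82 in *ppn1*Δ (SE 0.107, adjusted p = 4e-14), -3.57 in *swd22*Δ (SE 0.106, adjusted p = 6.9e-14) and -2.51 in *dis2*Δ (SE 0.101, adjusted p = 5.7e-12).

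*pho84* encodes the inorganic phosphate transporter of the plasma membrane, and its counts followed those of *pho1*. They were 31681, 30101 and 33070 in *WT*, 2397, 2273 and 2114 in *ppn1*Δ, and 2907, 2668 and 3215 in *swd22*Δ. The *dis2*Δ libraries had 8806, 7915 and 6049. None of the 4 strains overlapped another, in the order *ppn1*Δ, *swd22*Δ, *dis2*Δ, *WT*. The mean was 7.15%, 9.27% and 24.0% of *WT* in the mutants (*ppn1*Δ, *swd22*Δ, *dis2*Δ). The log2 fold changes were -3.81 (SE 0.116, adjusted p = 1.1e-13), -3.43 (SE 0.114, adjusted p = 2.7e-13) and -2.06 (SE 0.107, adjusted p = 2e-10).

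Counted from the largest fall, *pho1* and *pho84* stood at places 10 and 11 of the 6110 loci in *ppn1*Δ, 12 and 13 in *swd22*Δ, and 11 and 29 in *dis2*Δ. The plot of all loci shows both among the loci tested in each mutant.

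**Figure D2:**
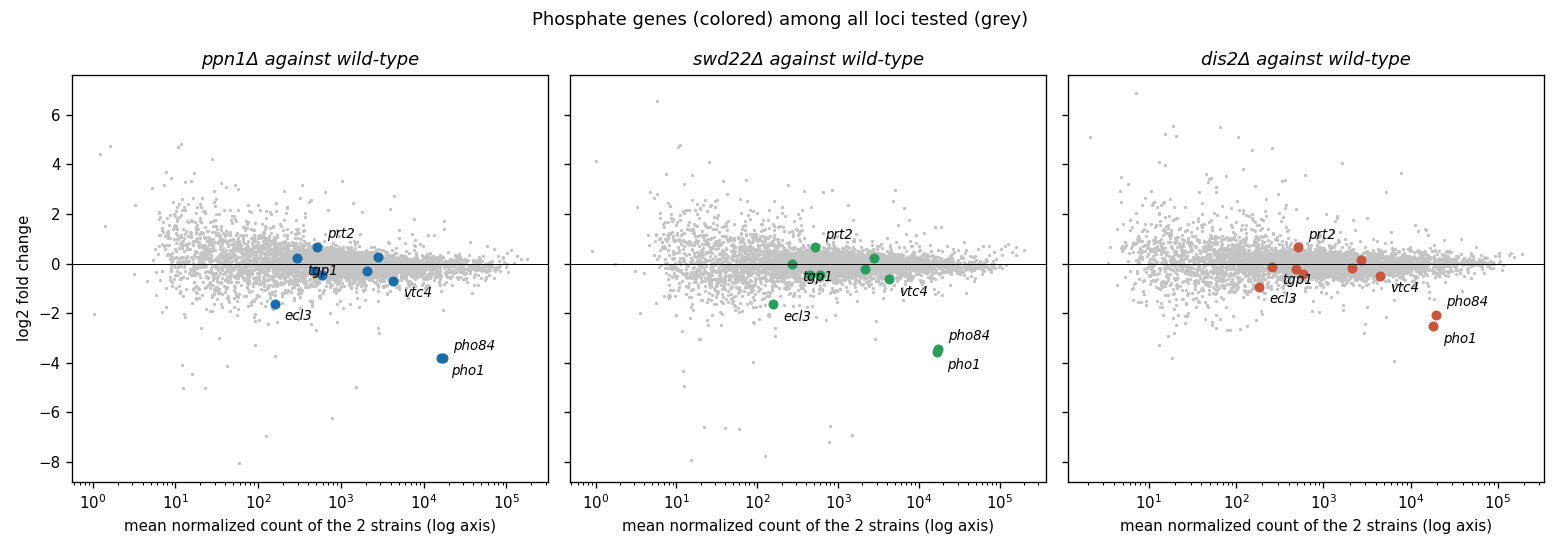
Log2 fold change against *WT* (vertical axis) by mean normalized count of the strains compared (log axis) for all 6110 loci tested in each mutant; grey points are loci and colored points the 10 genes, with 6 of them named. *pho1* and *pho84* lie at -3.82 and -3.81 in *ppn1*Δ and at -2.51 and -2.06 in *dis2*Δ, where the deleted *dis2* gene itself, a grey point, is lower at -3.92.

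The ratio of *pho84* to *pho1* counts within a library was computed after their values were seen. In *WT* the log2 ratio was 0.06 ± 0.030 (SD, n = 3), and in *ppn1*Δ it was 0.08 ± 0.112. The *swd22*Δ libraries had 0.20 ± 0.015 and the *dis2*Δ libraries 0.51 ± 0.051 (SD, n = 3 each), and neither strain overlapped *WT*. *pho84* thus kept 1.37-fold more of its *WT* level than *pho1* did in *dis2*Δ. The two-sided exact permutation p was 1 in *ppn1*Δ and 0.1 in each of the others, which is the smallest that 3 against 3 libraries allow (adjusted p = 0.13 over the 9 ratio tests).

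*tgp1* encodes the glycerophosphate transporter, and it is the PHO mRNA that did not move with the others. The *WT* mean of *tgp1* was 273, beside 30414 for *pho1* and 31617 for *pho84*. Whether this low level left less room for a fall was not tested. Its normalized read count was 263, 264 and 293 in *WT*, 319, 344 and 294 in *ppn1*Δ, 265, 241 and 296 in *swd22*Δ, and 254, 264 and 221 in *dis2*Δ. The *ppn1*Δ libraries lay just above *WT*, and the others overlapped *WT*. Its log2 fold change was 0.22 in *ppn1*Δ (95% CI -0.02 to 0.46, adjusted p = 0.11), -0.03 in *swd22*Δ (-0.27 to 0.21, adjusted p = 0.84) and -0.15 in *dis2*Δ (-0.39 to 0.09, adjusted p = 0.31). These intervals leave out a 2-fold change in either direction in each mutant, whereas those of *pho1* and *pho84* lie wholly under -1.8. When only the library totals were used for scaling, the change in *ppn1*Δ was 0.30 and passed (adjusted p = 0.033).

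**Figure D3:**
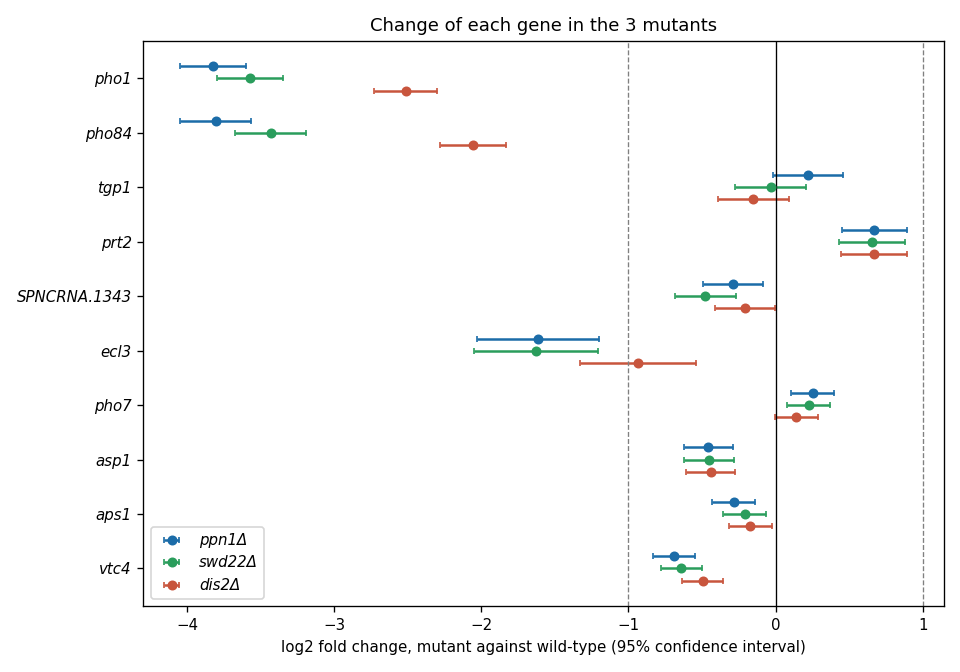
Log2 fold change of each gene in the 3 mutants against *WT* (horizontal axis), with 95% confidence intervals derived from edgeR's quasi-likelihood test. Dashed lines mark 2-fold. The intervals of *pho1* and *pho84* lie beyond -1.8, those of *tgp1* include 0, and *prt2* lies at 0.65 to 0.67 in all 3 mutants.

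The lncRNA *prt2*, whose transcription represses *pho84*, rose in all 3 mutants, as far as it was polyadenylated and so captured. Normalized counts were 462, 324 and 412 in *WT*, 634, 662 and 611 in *ppn1*Δ, 638, 600 and 643 in *swd22*Δ, and 627, 610 and 668 in *dis2*Δ. Every mutant library lay above every *WT* library, and the mutants overlapped each other. The means were 159%, 157% and 159% of *WT*, with log2 fold changes of 0.67 in *ppn1*Δ (SE 0.106, adjusted p = 6.5e-05), 0.65 in *swd22*Δ (SE 0.107, adjusted p = 0.00012) and 0.67 in *dis2*Δ (SE 0.107, adjusted p = 9.9e-05). Between mutants the 95% confidence intervals of its log2 difference all lay within -0.24 and 0.24, while *pho84* differed 3.36-fold between *dis2*Δ and *ppn1*Δ. These counts do not measure transcription of *prt2*, and a link between its level and that of *pho84* was not tested.

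Within each library the ratio of *prt2* to *pho84* raw counts needs no scaling between libraries. It was 0.0146, 0.0107 and 0.0125 in *WT*, 0.265, 0.291 and 0.289 in *ppn1*Δ, 0.220, 0.225 and 0.200 in *swd22*Δ, and 0.0712, 0.0771 and 0.110 in *dis2*Δ. No strain overlapped another. The geometric mean of the ratio exceeded that of *WT* 6.77-fold in *dis2*Δ, 17.2-fold in *swd22*Δ and 22.5-fold in *ppn1*Δ. The exact permutation p was 0.1 in each, the smallest possible (adjusted p = 0.13). Most of this difference lay in *pho84*, since *prt2* itself rose 1.57-fold to 1.59-fold.

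SPNCRNA.1343, the divergent transcript upstream of *tgp1*, went the other way. Its normalized read count was 458, 550 and 575 in *WT*, 450, 412 and 435 in *ppn1*Δ, 355, 373 and 409 in *swd22*Δ, and 459, 453 and 455 in *dis2*Δ. The *swd22*Δ libraries lay well under *WT* and the *ppn1*Δ libraries just under its lowest library, which the *dis2*Δ libraries overlapped. The log2 fold change was -0.48 in *swd22*Δ (SE 0.098, adjusted p = 0.00089), -0.29 in *ppn1*Δ (SE 0.097, adjusted p = 0.021) and -0.21 in *dis2*Δ (95% CI -0.41 to -0.01, adjusted p = 0.090). The call in *ppn1*Δ was lost without *WT* replicate 2 (-0.25, adjusted p = 0.060), *WT* replicate 3 (-0.22, adjusted p = 0.10) or *ppn1*Δ replicate 2 (-0.26, adjusted p = 0.069), and with library totals alone (-0.21, adjusted p = 0.11). In *dis2*Δ a call was gained without *WT* replicate 1 (-0.29, adjusted p = 0.030).

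The ratio of SPNCRNA.1343 to *tgp1* counts was 1.74, 2.08 and 1.96 in *WT*, 1.41, 1.20 and 1.48 in *ppn1*Δ, 1.34, 1.54 and 1.38 in *swd22*Δ, and 1.81, 1.72 and 2.06 in *dis2*Δ. It was lower than in *WT* in every *ppn1*Δ and *swd22*Δ library, by 0.50 and 0.44 on the log2 scale (exact permutation p = 0.1 each, adjusted p = 0.13), and it overlapped *WT* in *dis2*Δ (exact permutation p = 0.7, adjusted p = 0.79). The plot of count ratios sets both lncRNA and mRNA pairs side by side.

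**Figure D4:**
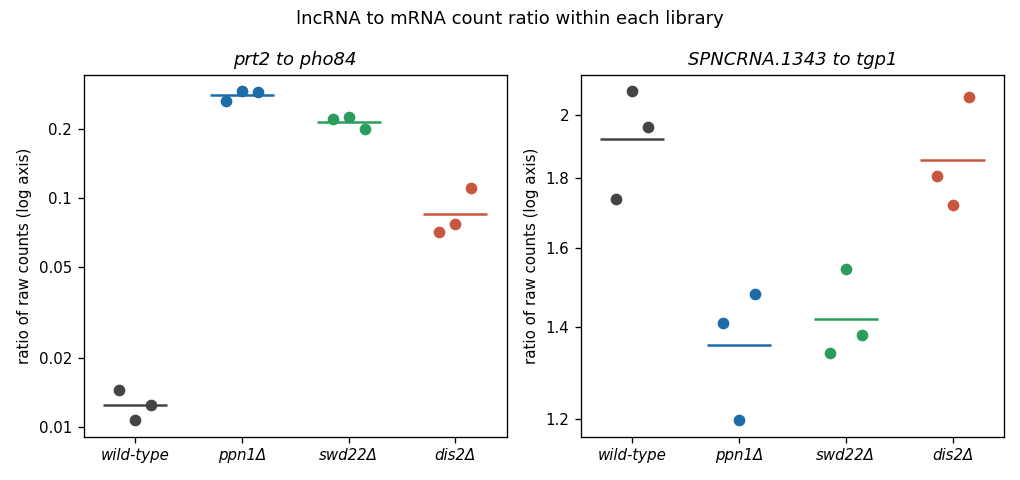
Ratio of raw lncRNA to mRNA counts within each library (log axes that do not start at 0 and differ between panels); points are libraries and bars geometric means (n = 3 per strain). The *prt2* to *pho84* ratio runs from 0.0107 to 0.0146 in *WT* and up to 0.291 in *ppn1*Δ, while the SPNCRNA.1343 to *tgp1* ratio stays between 1.20 and 2.08 in all strains.

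*ecl3* encodes a member of a small family of proteins known as extenders of chronological lifespan. In the annotation it lies next to *prt2* on the opposite strand, pointing away from it, in the cluster that continues with *pho84* and *pho1*. Libraries had normalized counts of 245, 258 and 215 in *WT*, 93.4, 63.4 and 76.5 in *ppn1*Δ, 84.9, 61.8 and 86.5 in *swd22*Δ, and 149, 142 and 84.7 in *dis2*Δ. All mutant libraries lay under *WT*, and 1 *dis2*Δ library reached down into the range of the other mutants. The log2 fold change was -1.62 in *ppn1*Δ (SE 0.197, adjusted p = 4.6e-06), -1.63 in *swd22*Δ (SE 0.199, adjusted p = 6.6e-06) and -0.94 in *dis2*Δ (SE 0.189, adjusted p = 0.00083). The fall in *dis2*Δ was thus just under 2-fold, and it passed 2-fold without *WT* replicate 3 (-1.01), *dis2*Δ replicate 1 (-1.08) or *dis2*Δ replicate 2 (-1.03). Within *dis2*Δ, replicate 3 was the lowest library for *pho1*, *pho84* and *ecl3*, and also for *tgp1*, *asp1* and *vtc4*. It was not the lowest for *prt2*, SPNCRNA.1343, *pho7* or *aps1*.

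The loci around the *pho* cluster and around *tgp1* were read from the annotation as the nearest 2 loci of the count table on each side, and 6 of these 8 neighbors had enough reads to test. By the adjusted p alone, 4 were higher in each of *ppn1*Δ and *dis2*Δ and 3 in *swd22*Δ, and none was lower, while 49.6% (*ppn1*Δ), 41.3% (*dis2*Δ) and 39.8% (*swd22*Δ) of all loci passed in either direction. Beyond *ecl3* and *pho1*, the lncRNAs SPNCRNA.1694 and SPNCRNA.117 and the proteasome regulator gene *fub2* had mean counts under 100 in every strain.

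On the side of *tgp1* that holds its promoter, the next tested locus beyond SPNCRNA.1343, past a tRNA gene (SPBTRNAGLN.04) with 0 counts in every library, was higher in all 3 mutants. SPNCRNA.1344 had 45.8, 76.6 and 50.1 normalized counts in *WT*, 104, 114 and 127 in *ppn1*Δ, 120, 184 and 83.2 in *swd22*Δ, and 203, 216 and 242 in *dis2*Δ. No mutant library overlapped *WT*. Its log2 fold change was 1.00 in *ppn1*Δ (adjusted p = 0.0033), 1.17 in *swd22*Δ (adjusted p = 0.0012) and 1.93 in *dis2*Δ (adjusted p = 8.1e-06), and it was called in *swd22*Δ and *dis2*Δ. SPBC1271.08c, a protein-coding gene of unknown function that overlaps SPNCRNA.1344 on the opposite strand, was added after its values were seen. It rose by 0.60, 1.10 and 1.85 on the log2 scale (adjusted p = 1.5e-05, 2.1e-08 and 2.1e-11). Without the strand setting the reads of this pair cannot be told apart. The next gene, SPBC1271.07c, annotated as an N-acetyltransferase and also added after its values were seen, had log2 fold changes of 0.18 (adjusted p = 0.13), 0.66 (adjusted p = 4e-05) and 1.73 (adjusted p = 4.6e-10). On the other side of *tgp1* the transporter gene SPBC1271.10c rose by 0.46, 0.35 and 0.26 on the log2 scale (adjusted p = 8.5e-06, 0.00020 and 0.0023).

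**Figure D5:**
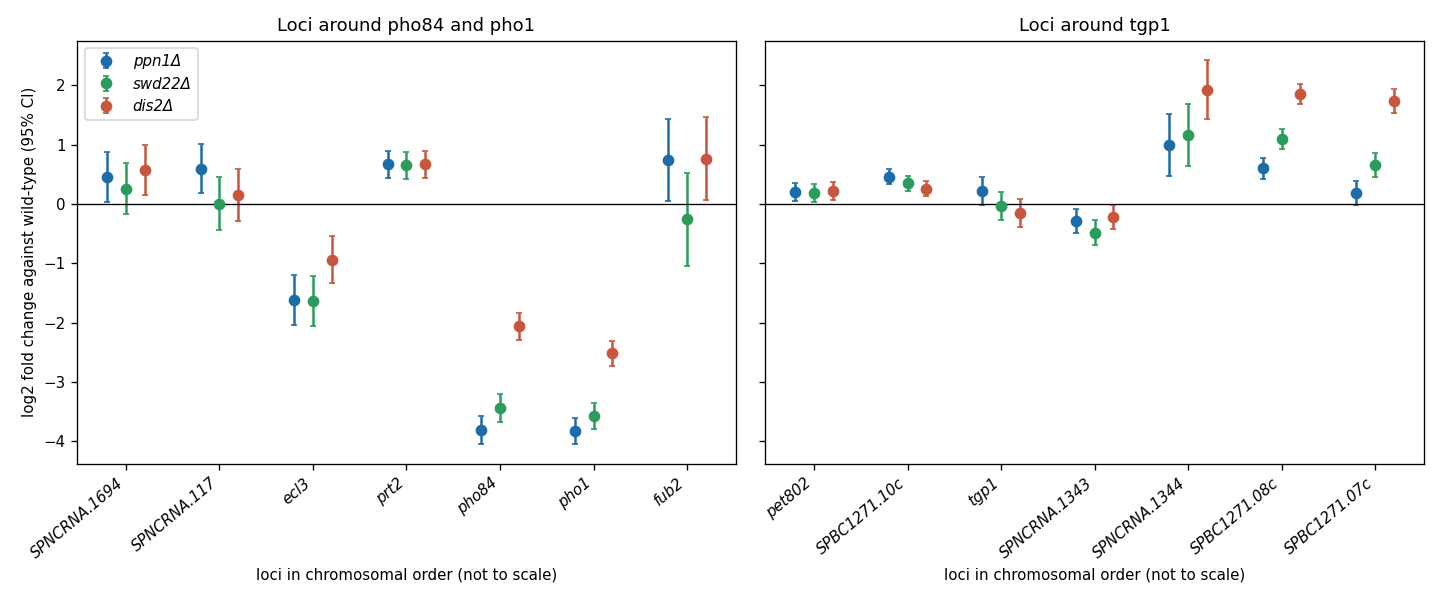
Log2 fold change against *WT* with 95% confidence intervals for tested loci in chromosomal order around *pho84* and *pho1* (left) and *tgp1* (right); positions are not to scale, and SPBC1271.08c and SPBC1271.07c were added after their values were seen. Falls beyond 2-fold are seen at *pho84* and *pho1* in every mutant and at *ecl3* in *ppn1*Δ and *swd22*Δ. The loci beyond SPNCRNA.1343 reach 1.93 in *dis2*Δ.

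Pho7 binds the promoters of the PHO genes and is needed for their expression. Its own mRNA had 2546, 2422 and 2794 normalized counts in *WT*, 3040, 3217 and 2983 in *ppn1*Δ, 2927, 2816 and 3325 in *swd22*Δ, and 2954, 2723 and 2870 in *dis2*Δ. It was higher than in any *WT* library in all *ppn1*Δ and *swd22*Δ libraries, by small amounts, and overlapped *WT* in *dis2*Δ. The log2 fold change was 0.25 in *ppn1*Δ (SE 0.069, adjusted p = 0.0063), 0.22 in *swd22*Δ (SE 0.069, adjusted p = 0.016) and 0.14 in *dis2*Δ (95% CI -0.01 to 0.29, adjusted p = 0.12). In *swd22*Δ the call was lost without *WT* replicate 1 (0.22, adjusted p = 0.060), *WT* replicate 2 (0.18, adjusted p = 0.074) or *swd22*Δ replicate 3 (0.15, adjusted p = 0.10), and in *dis2*Δ it was gained without *WT* replicate 3 (0.20, adjusted p = 0.049). In no mutant was the mean of the activator mRNA under that of *WT*. Pho7 protein was not measured, and its part in the changes of the PHO mRNAs was not tested.

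*asp1* encodes a bifunctional enzyme whose kinase domain makes, and whose pyrophosphatase domain removes, the pyrophosphate group at position 1 of inositol pyrophosphates. Its normalized read count was 677, 712 and 656 in *WT*, 502, 521 and 470 in *ppn1*Δ, 510, 494 and 493 in *swd22*Δ, and 493, 524 and 490 in *dis2*Δ. All mutant libraries lay under *WT* and overlapped each other. The means were 73.0%, 73.2% and 73.7% of *WT*, with log2 fold changes of -0.46 (SE 0.080, adjusted p = 0.00017), -0.45 (SE 0.080, adjusted p = 0.00026) and -0.44 (SE 0.080, adjusted p = 0.00032) in the mutants (*ppn1*Δ, *swd22*Δ, *dis2*Δ).

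*aps1* encodes a Nudix hydrolase that removes pyrophosphate groups from inositol pyrophosphates. It had 2430, 2322 and 2083 normalized counts in *WT*, 1855, 1807 and 1947 in *ppn1*Δ, 2098, 1998 and 1812 in *swd22*Δ, and 1935, 2135 and 1997 in *dis2*Δ. Only the *ppn1*Δ libraries all lay under *WT*. The log2 fold change was -0.28 in *ppn1*Δ (SE 0.069, adjusted p = 0.0028), -0.21 in *swd22*Δ (SE 0.069, adjusted p = 0.023) and -0.17 in *dis2*Δ (95% CI -0.32 to -0.03, adjusted p = 0.055). In *swd22*Δ the call was lost without *WT* replicate 1 (-0.16, adjusted p = 0.13), *WT* replicate 2 (-0.20, adjusted p = 0.059) or *swd22*Δ replicate 3 (-0.15, adjusted p = 0.11), and with library totals alone (-0.19, adjusted p = 0.076). In *dis2*Δ it was gained without *WT* replicate 3 (-0.23, adjusted p = 0.019), *dis2*Δ replicate 2 (-0.21, adjusted p = 0.049) or *swd22*Δ replicate 3 (-0.17, adjusted p = 0.043), and with *WT* and *dis2*Δ fitted alone (-0.17, adjusted p = 0.037).

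Of the other 5 genes of inositol polyphosphate metabolism, 2 were higher and 1 was lower by the adjusted p alone in each mutant, where 49.6%, 39.8% and 41.3% of all loci passed, and none passed 2-fold. The largest rise was that of *ipk1*, which encodes the kinase that makes inositol hexakisphosphate, the precursor of the pyrophosphates. Its log2 fold change was 0.65 in *ppn1*Δ (adjusted p = 1.1e-07), 0.91 in *swd22*Δ (adjusted p = 3.2e-09) and 0.90 in *dis2*Δ (adjusted p = 2.1e-09). The pyrophosphatase gene *siw14* rose by 0.23 to 0.26 on the log2 scale (adjusted p = 0.012, 0.0067 and 0.0065), and the kinase gene *kcs1* had log2 fold changes of -0.36, -0.30 and -0.28 (adjusted p = 4.1e-05, 0.00038 and 0.00063). *plc1* and *arg82* did not pass in any mutant. The median log2 fold change of these 5 genes was 0.12, 0.02 and 0.11, beside the medians over all loci given above.

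*vtc4* encodes the catalytic subunit of the vacuolar transporter chaperone (VTC) complex, which makes polyphosphate, the phosphate store of the vacuole. Its normalized read count was 5163, 4981 and 5484 in *WT*, 3430, 3146 and 3105 in *ppn1*Δ, 3326, 3108 and 3588 in *swd22*Δ, and 3940, 3631 and 3511 in *dis2*Δ. Every mutant library lay under every *WT* library. The means were 61.9%, 64.1% and 70.9% of *WT*, with log2 fold changes of -0.69 (SE 0.067, adjusted p = 3.4e-07), -0.64 (SE 0.067, adjusted p = 1.2e-06) and -0.50 (SE 0.066, adjusted p = 1.8e-05).

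A list of 14 further genes of phosphate uptake, storage and signaling was looked up, of which 10 were matched by name and tested. By the adjusted p alone, 6 passed in *ppn1*Δ (1 higher, 5 lower), 7 in *swd22*Δ (1 higher, 6 lower) and 6 in *dis2*Δ (2 higher, 4 lower), beside 49.6%, 39.8% and 41.3% of all loci, and none passed 2-fold. Their median log2 fold change was -0.15, -0.32 and -0.08. The gene of another VTC subunit, *vtc2*, fell with *vtc4*, by 0.81, 0.69 and 0.65 on the log2 scale (adjusted p = 5.4e-09, 4.3e-08 and 9.6e-08). For the vacuolar alkaline phosphatase gene *pho8* the values were -0.64 in *ppn1*Δ (adjusted p = 1.8e-06), -0.45 in *swd22*Δ (adjusted p = 9.4e-05) and -0.15 in *dis2*Δ (adjusted p = 0.11). *gde1*, which encodes a glycerophosphodiesterase, fell by 0.40, 0.57 and 0.38 on the log2 scale (adjusted p = 0.00015, 6.2e-06 and 0.00031). *pqr1*, which encodes a ubiquitin ligase with an SPX domain, fell by 0.30, 0.40 and 0.42 (adjusted p = 0.00055, 5.4e-05 and 4e-05). The transporter gene *pho841* (SPBC1683.01) had log2 fold changes of -0.11, -0.40 and -0.28 (adjusted p = 0.19, 0.00022 and 0.0042). For the phosphate transporter gene *pho842* the direction was upward, with log2 fold changes of 0.15 in *ppn1*Δ (adjusted p = 0.081), 0.27 in *swd22*Δ (adjusted p = 0.0053) and 0.38 in *dis2*Δ (adjusted p = 0.00032). So it was for *csk1*, with 0.29 in *ppn1*Δ (adjusted p = 0.016), 0.18 in *swd22*Δ (adjusted p = 0.15) and 0.27 in *dis2*Δ (adjusted p = 0.032).

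Among 9 genes of factors known to act on termination or decay of the PHO lncRNAs, 5 passed in *ppn1*Δ (2 higher, 3 lower), 3 in *swd22*Δ (1 higher, 2 lower) and 4 in *dis2*Δ (1 higher, 3 lower) by the adjusted p alone, and none passed 2-fold. These counts are near the share of all loci that passed (49.6%, 39.8% and 41.3%). Their median log2 fold change was -0.04, -0.10 and -0.02. The largest change was that of *mmi1*, which encodes the RNA-binding protein that directs transcripts to nuclear decay, with log2 fold changes of -0.61, -0.45 and -0.53 (adjusted p = 1e-06, 3.9e-05 and 7.9e-06). The phosphatase gene *duf89* had log2 fold changes of -0.42, -0.27 and -0.33 (adjusted p = 0.00080, 0.019 and 0.0064). *seb1* passed as lower in *ppn1*Δ (-0.29, adjusted p = 0.0018) and *dis2*Δ (-0.20, adjusted p = 0.028) only. The genes that passed as higher were *erh1* and *pcf11*. *erh1* did so in *ppn1*Δ (0.29, adjusted p = 0.0077) and *dis2*Δ (0.34, adjusted p = 0.0042), and *pcf11* in *ppn1*Δ (0.19, adjusted p = 0.013) and *swd22*Δ (0.27, adjusted p = 0.0013). *rhn1*, *ssu72*, *ctf1* and *rrp6* did not pass in any mutant.

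The mutants were then compared with each other. Between *swd22*Δ and *ppn1*Δ no gene of the 10 passed the 2-fold rule, which 0.0491% of all loci did, and 1 gene, *pho84*, passed the adjusted p alone, against 6.32% of all loci. *pho84* was higher in *swd22*Δ by 0.37 on the log2 scale (SE 0.107, adjusted p = 0.045), and this call was lost without *WT* replicate 1 or 3, *dis2*Δ replicate 2, *swd22*Δ replicate 1 or 3, or any *ppn1*Δ replicate (0.30 to 0.42, adjusted p from 0.055 to 0.17) and with library totals alone (0.31, adjusted p = 0.070). The log2 difference of *pho1* was 0.25 (95% CI 0.04 to 0.46, adjusted p = 0.15).

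Between *dis2*Δ and *ppn1*Δ 2 genes passed the 2-fold rule, against 1.73% of all loci, and between *dis2*Δ and *swd22*Δ 2 did, against 1.39%. They were *pho1* and *pho84* in both comparisons. *pho1* was 2.48-fold higher in *dis2*Δ than in *ppn1*Δ (log2 difference 1.31, SE 0.099, adjusted p = 3.3e-08) and 2.08-fold higher than in *swd22*Δ (1.06, SE 0.098, adjusted p = 7.8e-07). Without *dis2*Δ replicate 1 the latter was 0.97 on the log2 scale (adjusted p = 7.1e-06), under 2-fold, and 1 gene remained called. *pho84* was 3.36-fold higher in *dis2*Δ than in *ppn1*Δ (1.75, SE 0.108, adjusted p = 2.3e-09) and 2.59-fold higher than in *swd22*Δ (1.37, SE 0.106, adjusted p = 6.3e-08). Both differences were seen in every *dis2*Δ library.

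By the adjusted p alone, 5 of the 10 genes differed between *dis2*Δ and *ppn1*Δ (4 higher, 1 lower), against 28.7% of all loci, and 3 between *dis2*Δ and *swd22*Δ (3 higher), against 18.6%. *ecl3* was higher in *dis2*Δ by 0.68 and 0.69 on the log2 scale (adjusted p = 0.020 and 0.028), although its libraries overlapped. Both calls of *ecl3* were lost without *dis2*Δ replicate 1 (0.53 and 0.55, adjusted p = 0.11 and 0.12) or *dis2*Δ replicate 2 (0.59 and 0.61, adjusted p = 0.082 and 0.099). The first was also lost without *ppn1*Δ replicate 2 (0.56) or 3 (0.66), and the second without *swd22*Δ replicate 1 (0.77) or 2 (0.55). *vtc4* was higher than in *ppn1*Δ by 0.20 (adjusted p = 0.036), a call lost without *WT* replicate 1, *dis2*Δ replicate 1 or 2, or *ppn1*Δ replicate 2 or 3 (0.15 to 0.21, adjusted p from 0.055 to 0.17) and with library totals alone (0.11, adjusted p = 0.088). *tgp1* was lower than in *ppn1*Δ, with a log2 difference of -0.37 (SE 0.113, adjusted p = 0.021), a call lost without *dis2*Δ replicate 3 (-0.30, adjusted p = 0.095) or *ppn1*Δ replicate 2 (-0.31, adjusted p = 0.082). With library totals alone *pho7* was lower in *dis2*Δ than in *ppn1*Δ (-0.19, adjusted p = 0.023), a difference of -0.11 (adjusted p = 0.24) otherwise. SPNCRNA.1343 was 0.27 higher in *dis2*Δ than in *swd22*Δ on the log2 scale (adjusted p = 0.069), and passed without *WT* replicate 1 (adjusted p = 0.045). *prt2* and *asp1* showed log2 differences between -0.02 and 0.02 in all 3 comparisons of mutants.

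As a description, each gene's log2 level was set against the mean of *pho1* and *pho84* over the 12 libraries, which fall into *WT* and mutant groups. Pearson's r was 0.98 for *vtc4*, 0.96 for *ecl3*, 0.91 for *asp1*, 0.79 for SPNCRNA.1343, 0.78 for *aps1*, -0.25 for *tgp1*, -0.77 for *pho7* and -0.86 for *prt2*. The 5 loci outside the 10 genes that were most alike in this measure were *mei2*, *mfs2*, *ste11*, *mot1* and *fun14*, with r between 0.98 and 0.99. *mei2*, which encodes a meiotic RNA-binding protein, had log2 fold changes of -2.36, -2.08 and -1.21 (adjusted p = 5.2e-11, 2.4e-10 and 1.1e-07). *ste11*, which encodes a transcription factor of sexual differentiation, had -2.59, -2.32 and -1.76 (adjusted p = 2.1e-10, 9e-10 and 1.4e-08). *mot1*, a regulator of TATA-binding protein, had -0.52, -0.48 and -0.33 (adjusted p = 4.9e-07, 1.8e-06 and 8.1e-05), so a high r did not require a large fall.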

How the data were processed

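Poly(A)+ RNA-seq libraries of 4 strains, 3 biological replicates each, were compared. The authors mapped reads with HISAT2 2.1.0, counted them per locus with HTSeq 0.10.0 on ASM294v2, and deposited raw counts with no normalization; the strand setting of the counting is not given in the sources used here. The table had 6987 entries for 6986 IDs (2 entries of the same ID were summed), and 0 columns were left out. Libraries held 17616688 to 23435936 counts.

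Counts were fitted in edgeR 4.0.16 (R 4.3.3; filterByExpr, TMM, quasi-likelihood test) with 1 mean per strain over all 12 libraries, and normalized counts are scaled to 20838181 counts. Each SE was the size of the log2 fold change before edgeR's shrinkage, divided by the square root of the test's F statistic. The 95% confidence intervals are t limits of that SE around the reported log2 fold change. Replicates of every strain differed by more than sampling noise. Ratios within libraries were compared by two-sided exact permutation tests of 3 against 3. Both count tests were first run on simulated data with known changes.

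The annotation of ASM294v3 gave names, strands and neighbors only (6846 IDs matched, 140 did not); its coordinates and sequences were not used, and a search of promoters for a Pho7 motif was not run. The 10 genes and all lists were chosen with earlier results of these data known. All 10 are named whatever their values; list genes are counted in each direction, with values for some of those that passed, picked after their values were seen, and the most alike loci are the 5 with the highest r. xpr1, vtc1, pho88 and mir1 were not matched. An item of the list of lncRNA factors is not reported here and was left out of its counts.

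Alternatives were DESeq2 1.42.0, relative log expression factors, library totals alone, testing every locus with counts, requiring 10 counts per library, fitting only the pair of strains, blocking on the replicate number, dropping the cutoff on the mean count, 1 count added to ratios, and each library left out in turn. Summaries used pandas 2.3.3 and scipy 1.17.1, with numpy 2.4.6, under Python 3.11.15, and plots matplotlib 3.10.9.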

Additional observations from a re-analysis of the deposited data

How the results depend on the processing

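Under the alternatives, no called change of the 10 genes reversed, and of the single-gene values that have a test 1095 kept their side of the threshold, 36 lost it and 9 gained it. The number of genes past the adjusted p between *swd22*Δ and *ppn1*Δ, 1, was 0 with library totals alone, and ran from 0 to 1 with each library left out. The number between *dis2*Δ and *ppn1*Δ, 5, ran from 2 to 5 with each library left out, and the number passing 2-fold between *dis2*Δ and *swd22*Δ, 2, ran from 1 to 2. The causes were not tested. Using library totals alone moved the median over all loci in *ppn1*Δ by 0.08 on the log2 scale. Whether same-numbered libraries were paired cannot be settled from 3 correlations per comparison. Correlations of same-numbered deviations ran from -0.31 to -0.07 between *ppn1*Δ and *WT*, and from -0.16 to 0.20 between *dis2*Δ and *WT*. Between *swd22*Δ and *WT* they were all positive, from 0.05 to 0.20, but did not all exceed 0.1. Between mutants they ran from -0.24 to 0.26. With the replicate number as a block, 3, 3 and 2 genes were called against *WT*, as without it, and the log2 fold change of *pho1* in *ppn1*Δ was -3.83. Each group is 3 cultures of 1 strain, so p-values measure the spread between cultures and not between independently made strains.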
